A study of Mus musculus with 10 samples.

Results

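The 10 transcription factors that define and maintain pancreatic β cells are Pdx1, Mafa, Nkx6-1, Nkx2-2, Neurod1, Isl1, Pax6, Insm1, Rfx6 and Foxa2. These factors were followed in islets of control mice and of mice with a β cell deletion of FIT2. FIT2 is an ER protein important for the formation of lipid droplets. They were taken by gene symbol from a table of 47340 genes, and all 10 were among the 13065 genes that passed the filter on low expression (an average of 1 FPKM or more in FL or in KO; FPKM are fragments scaled by gene length and by the mapped fragments of the library). RNASeq was performed on islets of 5 floxed control (FL) mice and 5 βFIT2KO (KO) mice, all male, aged 12 wk and fed chow, and each mouse gave its own library. In FL mice both copies of Fitm2, the gene of FIT2, are floxed (FIT2fl/fl), and their genotype label reads wild type while their title reads Flox. KO mice carry the same floxed gene plus the Cre transgene B6.Cg-Tg(Ins2-cre)25Mgn/J, in which the rat insulin promoter drives Cre, so that deletion is aimed at β cells while the alpha, delta, PP and other cells of the islet keep the floxed gene. No library here carries Cre alone, so the presence of Cre and the loss of Fitm2 cannot be told apart.

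These factors act as a network on the same genes. Foxa2 is a pioneer factor that opens chromatin in the early gut and pancreas, Pdx1 is needed for the pancreas to form and later for insulin transcription, and Neurod1, Insm1, Rfx6, Pax6, Nkx2-2 and Isl1 drive endocrine precursors to become hormone cells and stay on in the adult islet, partly in alpha and delta cells too. Nkx6-1 holds β cells apart from the other endocrine fates, and Mafa comes on late, as β cells mature and become able to secrete insulin in response to glucose.

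Between mice, Isl1 and Pax6 had a Pearson r of 0.85, which did not pass adjustment over all pairs of factors (exact permutation p = 0.00715, adjusted 0.0536). Foxa2 had lower correlations with both. Promoter sequences of these 3 factors are shown for this reason. Each is the 250 bases before the start of transcription in RefSeq (build GRCm38.p6), written 5′ to 3′ along the gene's own strand, and capitals mark matches to the E-box, homeodomain, MAF, FOXA, RFX and TATA motifs spelled out after the sequences. They lie at chr13:116309689-116309938 (minus strand, Isl1), chr2:105668646-105668895 (plus strand, the upstream start of Pax6) and chr2:148046970-148047219 (minus strand, the upstream start of Foxa2).
Isl1: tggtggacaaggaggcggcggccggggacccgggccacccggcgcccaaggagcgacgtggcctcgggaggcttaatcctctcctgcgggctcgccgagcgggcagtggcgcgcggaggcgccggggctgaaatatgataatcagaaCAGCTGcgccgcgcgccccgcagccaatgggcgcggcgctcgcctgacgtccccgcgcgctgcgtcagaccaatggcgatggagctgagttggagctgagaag
Pax6: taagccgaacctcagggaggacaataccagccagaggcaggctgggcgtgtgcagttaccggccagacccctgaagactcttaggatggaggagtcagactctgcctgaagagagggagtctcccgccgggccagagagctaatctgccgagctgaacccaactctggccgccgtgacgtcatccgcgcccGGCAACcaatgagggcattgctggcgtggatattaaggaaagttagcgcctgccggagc
Foxa2: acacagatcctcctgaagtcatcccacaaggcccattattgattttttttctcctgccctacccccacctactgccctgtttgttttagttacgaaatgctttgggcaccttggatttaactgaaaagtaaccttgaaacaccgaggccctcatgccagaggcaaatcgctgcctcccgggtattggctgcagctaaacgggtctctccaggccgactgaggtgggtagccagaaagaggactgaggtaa
The Isl1 sequence holds an E-box, the kind of site that Neurod1 binds with its E protein partners, from position −103 before the start. The Pax6 sequence holds an RFX motif from position −59, and the window of another Pax6 start holds an E-box from position −20. No capital stands in the Foxa2 sequence, which says only that these letters are not in this window. Windows of other Foxa2 starts do hold such motifs. These are an E-box from position −223 and a TATA box from −208 at one start, and a MAF motif from −45 at another. RefSeq windows running from 250 bases before to 50 after a start were matched for 8 of the 10 factors, all but Mafa and Insm1, and gave 11 windows. On both strands, and with overlaps allowed, the E-box CANNTG was in 7 of the 11 and in 72.3% of all 32851 RefSeq windows, the MAF motif TGCTGA was in 3 and in 19.5%, and the RFX motif GTTGCC was in 2 and in 12.5%. The homeodomain motif TAATTA was in 1 of the 11 and in 5.29% of all windows, the TATA box TATAAA in 1 and in 13.6%, and the FOXA motif TGTTTA in 0 and in 13.4%.

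Fitm2 (chr2:163466379-163472629, minus strand, GRCm38) was at 15.5 to 37.1 FPKM in FL islets and at 4.30 to 9.13 FPKM in KO islets, with no overlap (log2 fold change −1.58, adjusted p = 0.00228 from limma). The file holds no read counts. The steps between very low values put the depth of the other 9 libraries at 1.41 to 2.41 times that of FL mouse 1, the shallowest, and FPKM summed to between 627084 and 675470 per library. Ins1, Ins2 and Iapp, the β cell's most abundant hormone genes, the alpha cell hormone gene Gcg, and Chga are listed at 0 in all 10 libraries and give no check of the tissue, whereas Ucn3, Slc2a2 and Sst were at 179.6 to 350.3 (Ucn3), 120.3 to 304 (Slc2a2) and 3701 to 5467 (Sst) FPKM.

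The question was whether the identity factors change in islets when FIT2 is deleted in β cells. All 10 factors were lower in KO islets than in FL islets (limma on log2(FPKM + 1), adjusted p at most 0.05 over all tested genes), where 16.5% of all tested genes were lower and 9.05% higher. The median log2 fold change of the 10 was −0.48, against −0.06 over all tested genes (quartiles −0.18 and 0.08). For all 10, the highest KO mouse lay below the lowest FL mouse, which held for 12.5% of all tested genes. This separation by itself gives each factor the smallest p that an exact two-sided permutation test of 5 mice against 5 can give, 0.00794. The sizes were moderate, since KO levels were 65.8% to 80.0% of FL levels in 9 factors and 44.6% in Mafa, and only Mafa and Nkx2-2 changed by at least 1.5-fold. Rescaling the libraries by their median ratio turned the split of all tested genes from 2150 lower and 1183 higher to 1531 lower and 1621 higher, and left all 10 factors called lower. In whole islets, fewer β cells and less RNA of these genes per β cell cannot be told apart.

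**Figure D1:**
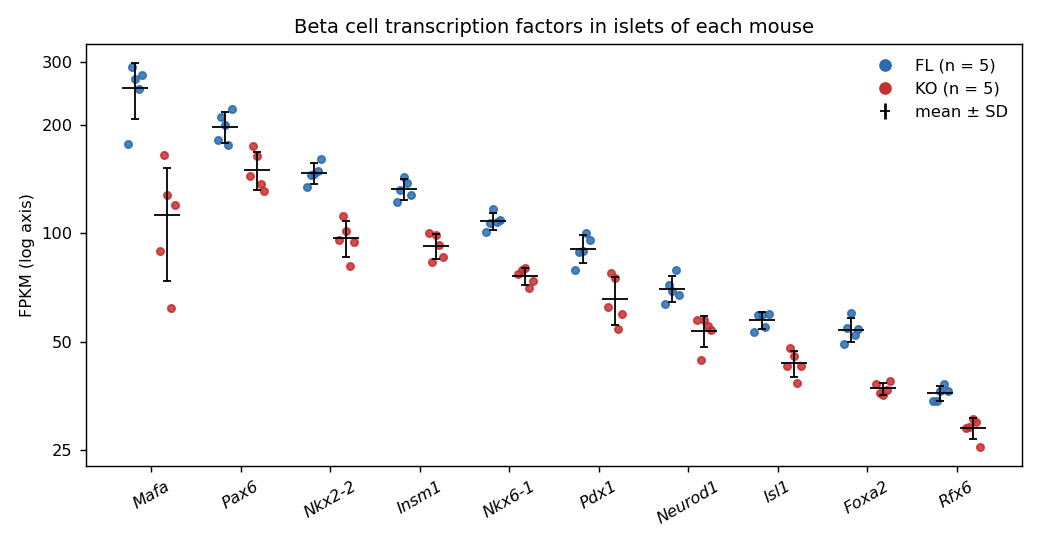
FPKM of each factor (log axis) in islets of each FL mouse (blue) and KO mouse (red), with the mean and SD of 5 mice in black, ordered by the FL mean. In each of the 10 factors every red point lies under every blue point, and Mafa has the widest spread, from 62.1 to 165 FPKM in KO.

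Foxa2 (chr2:148042877-148046969, minus strand), the pioneer factor, was at 49.2, 54.5, 60.1, 52.0 and 54.2 FPKM in FL mice 1 to 5 and at 38.2, 35.9, 35.6, 36.6 and 38.8 FPKM in KO mice 1 to 5. The 5 KO values lay close together, with an SD of 1.43 FPKM against 4.0 in FL, and 10.4 FPKM separated the groups. Its log2 fold change was −0.53 (95% interval −0.65 to −0.41, adjusted p = 6.97e-05 from limma). Pdx1 (chr5:147269959-147275848, plus strand) was at 78.9, 88.4, 89.5, 100.2 and 95.9 FPKM in FL and at 62.3, 77.4, 74.9, 54.0 and 59.7 FPKM in KO. KO mice 2 and 3 came within a few FPKM of FL mouse 1, the lowest FL mouse, and the gap between the groups was 1.52 FPKM. The log2 fold change of Pdx1 was −0.47 (−0.69 to −0.24, adjusted p = 0.00756 from limma). Plut, a noncoding gene, is annotated antisense to Pdx1, and whether the reads were counted by strand is not given in the sources used here.

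Among the factors of endocrine differentiation, Nkx2-2 had the largest decrease. Nkx2-2 (chr2:147177546-147194243, minus strand), a homeodomain repressor that keeps β cells from taking other endocrine fates, was at 134, 145, 146, 149 and 161 FPKM in FL and at 95.8, 112, 101.2, 81.3 and 94.4 FPKM in KO. The lowest FL mouse exceeded the highest KO mouse by 22.6 FPKM, the widest gap of the 10 factors, and the log2 fold change was −0.60 (−0.78 to −0.43, adjusted p = 0.000353 from limma). A gene antisense to it, 6430503K07Rik, averaged 3.86 FPKM in FL and 3.46 in KO. Insm1 (chr2:146221921-146225020, plus strand), a zinc finger repressor of endocrine precursors and mature islet cells, was at 122, 132, 144, 138 and 128 FPKM in FL and at 100.4, 83.2, 98.7, 92.8 and 85.7 FPKM in KO. The groups stood 21.4 FPKM apart, and the log2 fold change of Insm1 was −0.52 (−0.67 to −0.38, adjusted p = 0.000272 from limma).

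Neurod1 (chr2:79452521-79456751, minus strand), a basic helix-loop-helix activator of the insulin gene, was at 63.5, 71.9, 69.1, 79.1 and 67.5 FPKM in FL and at 57.2, 44.5, 57.3, 55.1 and 53.7 FPKM in KO. KO mouse 2 stood below the other 4 KO mice, which lay within 4 FPKM of one another. The log2 fold change was −0.39 (−0.56 to −0.21, adjusted p = 0.00526 from limma), and the gene was still called when KO mouse 2 was left out. Cerkl overlaps Neurod1 on the same strand and averaged 21.6 ± 1.08 FPKM in FL against 18.4 ± 0.89 in KO (SD, n = 5), and how reads in the overlap were assigned was not tested. Isl1 (chr13:116298281-116309689, minus strand), a LIM homeodomain factor that works with the cofactor Ldb1, was at 53.3, 59.1, 59.3, 54.9 and 59.8 FPKM in FL and at 42.8, 48.1, 45.7, 38.5 and 42.7 FPKM in KO. KO mouse 2 was the highest and KO mouse 4 the lowest of the KO mice, and 5.18 FPKM separated the groups (log2 fold change −0.39, −0.53 to −0.25, adjusted p = 0.00128 from limma).

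Pax6 (chr2:105668900-105697364, plus strand), a paired homeodomain factor of all islet endocrine cells, was at 181, 211, 199, 176 and 221 FPKM in FL and at 145, 175, 164, 137 and 131 FPKM in KO. The highest KO mouse, KO mouse 2, lay 1.22 FPKM under FL mouse 4, the narrowest gap of the 10, and the log2 fold change was −0.40 (−0.60 to −0.19, adjusted p = 0.00979 from limma). Pax6os1, antisense to Pax6, averaged 17.0 ± 1.58 FPKM in FL against 17.0 ± 1.16 in KO (SD, n = 5). Rfx6 (chr10:51677756-51730432, plus strand), a winged-helix factor needed for islet development, was at 34.3, 34.3, 36.4, 38.1 and 36.4 FPKM in FL and at 28.8, 29.0, 30.5, 29.96 and 25.4 FPKM in KO. It had the lowest level of the 10 factors and the smallest difference, with a log2 fold change of −0.31 (−0.44 to −0.19, adjusted p = 0.00235 from limma).

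Of the factors that mark the mature β cell, Nkx6-1 (chr5:101658139-101664996, minus strand) was at 100.8, 107, 116, 107 and 109 FPKM in FL and at 76.9, 79.1, 80.0, 70.4 and 73.6 FPKM in KO. Both groups were tight, with a coefficient of variation of 5.18% in FL and 5.25% in KO, and Nkx6-1 had the smallest adjusted p of the 10 (log2 fold change −0.50, −0.62 to −0.39, adjusted p = 6.41e-05 from limma). Mafa (chr15:75745490-75748228, minus strand), the bZIP activator of insulin and glucose-sensing genes, was at 177, 290.0, 269, 252 and 275 FPKM in FL and at 89.3, 165, 127, 62.1 and 119.6 FPKM in KO. It was the most variable factor in both groups, with coefficients of variation of 17.6% in FL and 34.7% in KO, and FL mouse 1, the lowest FL mouse, was 11.8 FPKM above KO mouse 2, the highest KO mouse. The log2 fold change of Mafa was −1.21 (−1.73 to −0.69, adjusted p = 0.00372 from limma), the largest of the 10. Across the 10 factors, the SD of log2(FPKM + 1) was larger in KO than in FL mice for 9, Foxa2 being the exception. For Nkx6-1 the SDs were nearly equal, 0.0736 in FL and 0.0756 in KO. This difference in spread was not tested, the factors share the same mice, and no share over all tested genes is given.

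Since FPKM are scaled by gene length, levels of the factors can be set side by side. In FL islets the order of mean FPKM was Mafa (253), Pax6 (198), Nkx2-2 (147), Insm1 (133), Nkx6-1 (108), Pdx1 (90.6), Neurod1 (70.2), Isl1 (57.3), Foxa2 (54.0) and Rfx6 (35.9). Neighbours in this order whose values overlapped were Mafa and Pax6, Nkx2-2 and Insm1, Pdx1 and Neurod1, and Isl1 and Foxa2. In KO islets Pax6 led with 150.4 FPKM and Mafa came second with 113 FPKM, followed by the other 8 in the same order as in FL. Only Insm1 and Nkx6-1, and Foxa2 and Rfx6, were neighbours with separate ranges in KO. Mafa was above Pax6 in 4 of 5 FL mice, all but FL mouse 1, and in 0 of 5 KO mice.

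Whether any factor departed from the rest was asked by setting it, within each mouse, against the mean of the other 9 on the log2(FPKM + 1) scale. Of 10 such comparisons, each with an exact two-sided permutation test and no adjustment, 3 had a p under 0.05. Mafa fell by 0.76 relative to the others (exact permutation p = 0.0159). Isl1 was higher by 0.16 relative to the others and Rfx6 by 0.24 (exact permutation p = 0.00794 for each), so each of these latter factors decreased less than the mean of the others. The mean of the others contains Mafa, whose decrease was large, and with the median of the others in place of the mean the differences were −0.75 for Mafa, 0.15 for Isl1 and 0.22 for Rfx6, all still with p under 0.05. The difference was 0.15 for Pax6 (exact permutation p = 0.0794), and 0.19 without KO mouse 5 (p = 0.0317). For Neurod1 it was 0.16 (exact permutation p = 0.206), and 0.26 without KO mouse 2 (p = 0.0238). Nkx2-2, at −0.08 (exact permutation p = 0.119) against the mean, differed by −0.14 (p = 0.0238) against the median and by −0.11 (p = 0.0397) against the mean without KO mouse 2. For Pdx1, Nkx6-1, Insm1 and Foxa2 the differences lay between 0.00 and 0.07, with p of 0.270 or more.

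**Figure D2:**
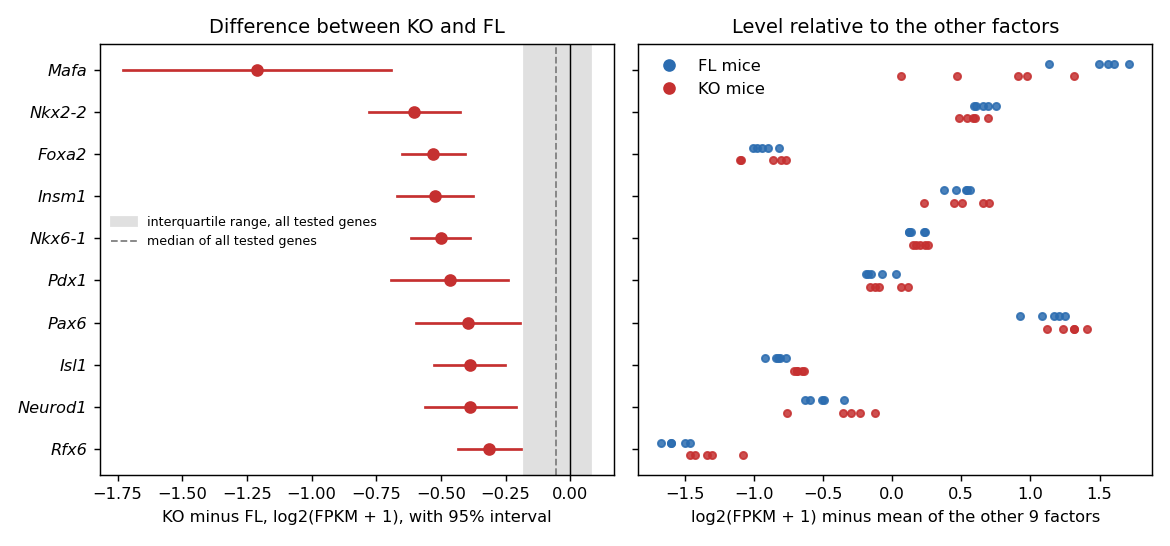
Left, the KO minus FL difference of each factor on the log2(FPKM + 1) scale with its 95% interval from limma, over the interquartile range (grey) and median (dashed) of all 13065 tested genes. Right, each mouse's level of a factor minus the mean of the other 9 factors in the same mouse. Mafa lies farthest left at −1.21, and in the right panel the FL and KO values of Isl1 and, narrowly, of Rfx6 do not overlap.

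The mice also differed within their groups. FL mouse 1, the shallowest library, had the lowest value of the 5 FL mice for 8 of the 10 factors, the exceptions being Pax6 and, narrowly, Rfx6, while it was the lowest FL mouse in 28.2% of all tested genes. All 10 factors were still called lower without it. Among KO mice, KO mouse 4 was lowest for Pdx1, Mafa, Nkx6-1, Nkx2-2 and Isl1. KO mouse 2 was highest for Pdx1, Mafa, Nkx2-2, Isl1 and Pax6 and at the same time lowest for Neurod1 and Insm1. KO mouse 3 was highest for Nkx6-1, Neurod1 and Rfx6.

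How the factors varied together between mice was measured over all 10 mice after each group's mean had been subtracted. A correlation within FL or KO alone would rest on only 5 mice and is not given here. Over the 45 pairs of factors the median Pearson r was 0.30 (jackknife SE over mice 0.23), and 31 pairs were above 0. Over all 85340580 pairs of tested genes the median r was 0.06 and 55.5% were above 0. The median over the 45 pairs was 0.13 to 0.20 after the 4 rescalings of the libraries and 0.20 to 0.49 when single mice were left out, so its size rests on the scaling. All values of a mouse share its library, depth and cell composition.

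Of the 45 pairs, 13 had p under 0.05 in an exact permutation test of the mice within groups, and 3 passed the Benjamini-Hochberg adjustment over the 45. For Mafa and Isl1, r was 0.93 (exact permutation p = 0.000694, adjusted 0.0292) and Spearman's rho was 0.84 (p = 0.0091, adjusted 0.102). For Nkx2-2 and Isl1, r was 0.91 (exact permutation p = 0.00194, adjusted 0.0292) and rho 0.85 (p = 0.00854, adjusted 0.102). For Pdx1 and Nkx2-2, r was 0.90 (exact permutation p = 0.00132, adjusted 0.0292) and rho 0.95 (p = 0.000486, adjusted 0.0219). Without the 2 mice farthest from the median of the first factor, r was 0.79 for Mafa and Isl1 (KO mouse 4 and FL mouse 1 left out), 0.74 for Nkx2-2 and Isl1 (KO mice 4 and 2) and 0.81 for Pdx1 and Nkx2-2 (KO mice 2 and 4). The number of pairs that passed depended on single mice. It was 0 without FL mouse 1 and 0 without any single KO mouse, where 8 to 14 pairs still had an unadjusted p under 0.05, and it was 5, 8, 5 and 3 without FL mice 2, 3, 4 and 5.

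**Figure D3:**
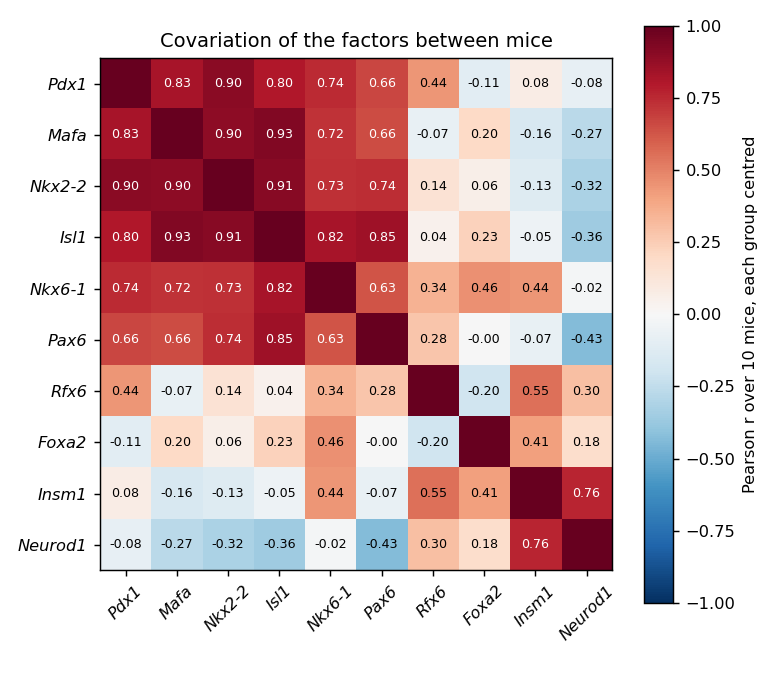
Pearson's r between each pair of factors over 10 mice after the mean of each group was subtracted from log2(FPKM + 1), from blue (−1) to red (1). The upper left block of Pdx1, Mafa, Nkx2-2, Isl1, Nkx6-1 and Pax6 ranges from 0.63 to 0.93, whereas the row of Neurod1 against these 6 ranges from −0.43 to −0.02.

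Pdx1, Mafa, Nkx6-1, Nkx2-2, Isl1 and Pax6, all but Mafa homeodomain proteins, were grouped after the correlations had been seen, so the following values describe them without a test. Their 15 pairs had r from 0.63 to 0.93 with a median of 0.80. All 15 stayed above 0 when any single mouse was left out, with the lowest r at 0.49, and after each rescaling, with the lowest r at 0.27. Without the 2 mice farthest from the median of the first factor, the lowest r was 0.24. This was Mafa and Nkx6-1 without KO mouse 4 and FL mouse 1, against 0.72 with all mice. In the mean-centred values KO mouse 4 and FL mouse 1 were low and KO mouse 2 was high in this group, as their printed levels of Isl1 and Pax6 show. The 24 pairs between the 6 and Neurod1, Insm1, Rfx6 and Foxa2 had a median r of −0.01 with a range from −0.43 to 0.46, and these values rested on single mice and on the scaling. Their median was 0.31 without KO mouse 2 and −0.24 without FL mouse 1, and −0.34 to −0.10 after the 4 rescalings. For Pdx1 and Rfx6, r was 0.44 and reached 0.79 with 1 mouse left out, and for Nkx6-1 and Insm1 it was 0.44 and reached 0.75. Nkx6-1 and Rfx6 had an r of 0.34, and of 0.81 without KO mouse 4 and FL mouse 3. Isl1 and Pax6, whose promoters are printed above, had r = 0.85 (exact permutation p = 0.00715, adjusted 0.0536) and rho 0.87 (p = 0.00701, adjusted 0.102). This pair did not pass the adjustment. Foxa2 had r = 0.23 with Isl1 and −0.005 with Pax6.

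The highest r of Neurod1 was with Insm1 (r = 0.76, exact permutation p = 0.0101, adjusted 0.0652; rho 0.72, p = 0.0274, adjusted 0.149), a pair that did not pass the adjustment. Without KO mouse 2 and FL mouse 1, the mice farthest from the median of the centred Neurod1 values, r was 0.49. All 6 pairs of Neurod1 with the group of 6 were below 0, but this rested on KO mouse 2, since without it only 1 of the 6 was below 0 and r reached 0.62 with Pdx1.

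**Figure D4:**
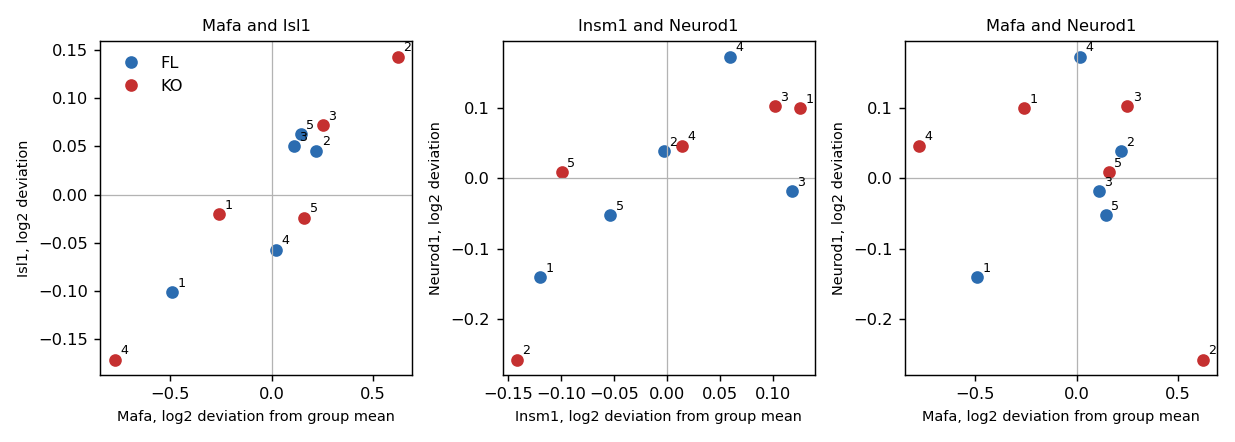
Deviation of each mouse from its group mean on the log2(FPKM + 1) scale for 3 pairs of factors, with FL mice in blue and KO mice in red and the replicate number beside each point. Mafa and Isl1 (r = 0.93) run from KO mouse 4 and FL mouse 1 at the low end to KO mouse 2 at the high end, whereas KO mouse 2 lies apart at the bottom for Neurod1.

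Among the 7675 genes that averaged 10 FPKM or more, those whose centred values were most like the mean of the 10 factors over the 10 mice were Pxk (r = 0.94), Nptxr (0.94), Mthfd1 (0.93), Ucn3 (0.93) and Rpia (0.91). They were picked for this likeness and carry no test. Their own log2 fold changes were −0.19, −0.29, −0.24, −0.60 and −0.52, and all 5 were called lower in KO (adjusted p between 0.00176 and 0.0179 from limma). The share called lower over all tested genes was 16.5%. Ucn3 encodes urocortin 3, a peptide of mature β cells, and Rpia an enzyme of the pentose phosphate pathway.

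Genes of β cell function that these factors act on were mostly lower as well. Of 21 tested, 12 were lower and 1 was higher in KO, with a median log2 fold change of −0.31. Over all tested genes, 16.5% were lower and 9.05% higher. Ffar1, the fatty acid receptor GPR40, fell from 61.8 ± 2.71 to 29.7 ± 3.80 FPKM (SD, n = 5; log2 fold change −1.04, adjusted p = 4.49e-06 from limma). Gjd2, the gap junction protein that couples β cells, fell from 128 ± 9.44 to 68.1 ± 4.28 FPKM (−0.90, adjusted p = 3.56e-06 from limma). The zinc transporter Slc30a8 fell from 303 ± 21.2 to 179 ± 18.5 FPKM, the glucose transporter Slc2a2 from 245 ± 34.5 to 150.7 ± 25.04 FPKM, and Ucn3 from 315 ± 33.1 to 209 ± 34.4 FPKM. Nnat had the largest log2 fold change, −1.43 (adjusted p = 0.0279 from limma), but its FL values ran from 6.51 to 27.2 FPKM and overlapped those of KO. Abcc8, Gipr, Scg5, Cacna1c and Cacna1d were also called lower. The prohormone convertase Pcsk1, at 188 ± 20.5 FPKM in FL and 224 ± 30.7 in KO, did not pass (adjusted p = 0.0910 from limma). The gene called higher was Pcsk2, listed at 0 in each FL library and at 948 to 1171 FPKM in KO, and Chgb, among the 12 lower, was at 648 to 794 FPKM in FL and is listed at 0 in each KO library. A value of exactly 0 for such abundant genes can be a failed estimate, so neither is read as a change or given a fold change, and without them 11 of 19 genes were lower and 0 higher.

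Of 32 partner proteins and cofactors, all of which were tested, 9 were lower and 1 was higher, and the median log2 fold change was −0.15. The shares over all tested genes were 16.5% lower and 9.05% higher. Rcor2, a corepressor partner that Insm1 recruits together with Kdm1a, fell from 8.77 ± 0.95 to 5.35 ± 1.5 FPKM (adjusted p = 0.00723 from limma), the Groucho corepressor Tle3 from 76.3 ± 7.69 to 54.4 ± 5.93 FPKM (adjusted p = 0.00274) and Pknox1, a TALE homeodomain factor, from 12.4 ± 0.85 to 9.68 ± 1.24 FPKM (adjusted p = 0.0130). Smarca4, Dnmt1, Ssbp2, Tcf3, Meis1 and Kdm6a were the others called lower. Ssbp3, which binds Ldb1 in complexes with Isl1, rose from 110.4 ± 10.2 to 149 ± 6.64 FPKM (adjusted p = 0.000733 from limma), while Ldb1 itself was at 54.7 ± 3.05 and 51.4 ± 3.31 FPKM (adjusted p = 0.288).

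Among 40 other transcription factors of islet lineages, 32 were tested. Of these, 14 were lower and 0 higher at the threshold, and their median log2 fold change was −0.22. For this list and the paralogs below, the shares over all tested genes were 16.5% lower and 9.05% higher. Lmx1b, at 5.52 ± 1.29 and 1.79 ± 0.41 FPKM, and Mlxipl, the glucose-responsive factor ChREBP, at 47.2 ± 4.23 and 20.2 ± 1.25 FPKM, had log2 fold changes of −1.21 and −1.18 (adjusted p = 0.000182 and 6.88e-07 from limma), near that of Mafa. Tox3 fell from 39.9 ± 1.51 to 24.8 ± 0.97 FPKM (adjusted p = 2.28e-06 from limma). Mnx1, St18, Myt1, Tshz1, Nfatc2, Esrrg, Hnf4g, Irx1, Prox1 and Nfatc3 were also called lower. Gata6 and Thrb had positive log2 fold changes, 0.20 and 0.17, and did not pass (adjusted p = 0.107 and 0.163 from limma). Of 31 paralogs of the factors, 10 passed the filter, and Rfx1 (−0.30), Foxa3 (−0.29) and Rfx2 (−0.26) were called lower, with no paralog called higher and a median of −0.09.

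**Figure D5:**
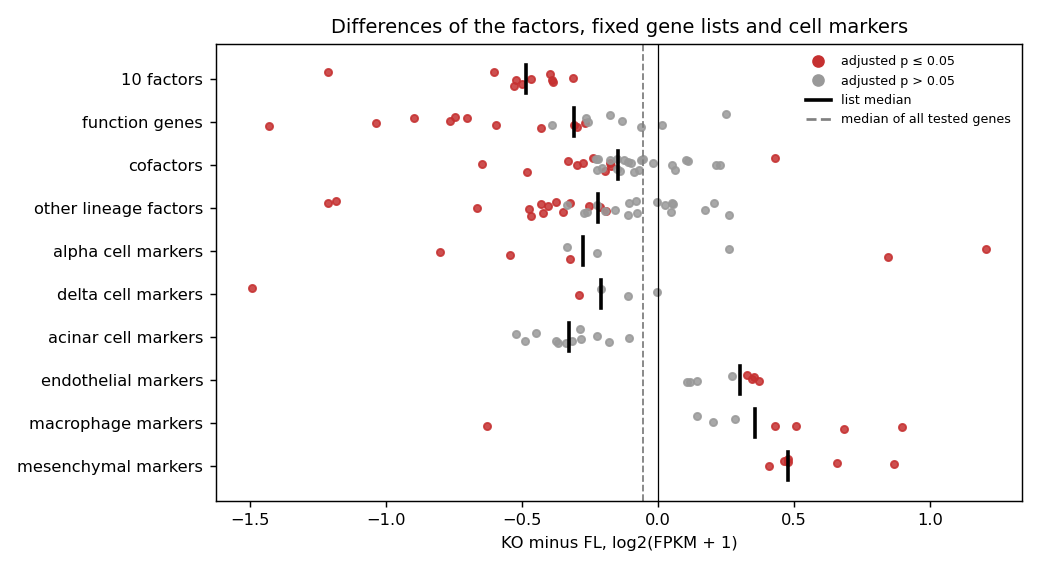
KO minus FL difference on the log2(FPKM + 1) scale for single genes, grouped as the 10 factors, 3 gene lists and 6 lists of cell markers, with red points at an adjusted p of at most 0.05, black bars at list medians and the dashed line at the median of all tested genes. Genes listed at 0 in a whole group are left out. The factors lie wholly left of 0 with a median of −0.48, whereas all tested endothelial and mesenchymal markers lie right of 0.

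Markers of other cells moved between the groups too, and their part in the lower levels of the factors was not tested. As a background for all marker counts, 16.5% of all tested genes were lower and 9.05% higher. All 6 tested mesenchymal markers were higher in KO, with summed levels of 18.8 to 27.7 FPKM in FL and 35.4 to 45.3 FPKM in KO. Of 8 endothelial markers, 4 were higher (sums of 177 to 208 and 201 to 266 FPKM), and of 8 tested macrophage and leukocyte markers, 4 were higher and 1, Cd79a, lower (143 to 168 and 199 to 239.8 FPKM), with Lyz2 rising from 25.7 ± 5.38 to 48.3 ± 5.88 FPKM. Acinar markers passed in neither direction (0 of 12), with sums of 4868 to 13030 FPKM in FL and 3259 to 24069 FPKM in KO, the last in KO mouse 5, which was lowest of the KO mice for Pax6 and Rfx6; without this mouse all 10 factors were still called lower. Of 7 tested β cell markers, 2 of them members of the 10 factors, 5 were lower, with sums of 2374 to 2968 FPKM in FL and 1658 to 2287 FPKM in KO.

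Other endocrine cells share several of the factors. Of 8 tested alpha cell markers, Slc7a2, Ttr and Irx1 were lower and Gpx3 and Sstr2 higher, with the defining gene Gcg listed at 0. The alpha marker sums were 875 to 1147 FPKM in FL and 1011 to 1271 FPKM in KO. Gpx3 alone, at 383 ± 38.2 FPKM in FL and 692 ± 91.6 in KO, is a large part of them. Of the 8, 5 had log2 fold changes below 0, as did 61.9% of all tested genes. Of 5 tested delta cell markers, Sst and Pdyn were lower (sums of 4973 to 5862 and 3996 to 5343 FPKM), but 1 rather than 2 passed under 11 of 22 alternatives, including each of the 4 rescalings and leaving out FL mouse 1, 3, 4 or 5 or KO mouse 1 or 4. Of 3 tested PP cell markers 1, Sertm1, was higher (5376 to 21567 and 12398 to 17340 FPKM), of 7 ductal markers Krt7 was lower and Cftr higher (774 to 868 and 702 to 877 FPKM), and of 2 tested Schwann cell markers Ngfr was higher (5.59 to 9.82 and 9.90 to 12.9 FPKM).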

How the data were processed

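Islets were isolated, left overnight in CMRL medium, and their polyadenylated RNA was made into stranded libraries and sequenced as single 75 nt reads. The deposited values are FPKM, in 1 table that has a column for each mouse; per the labels, STAR 2.5.2a and Cuffnorm 2.2.1 were used with mm10 (GRCm38). The number of reads behind a value is not in the table, so no counting error could be computed, and the number of mice sets the precision. Gene coordinates are from GENCODE M21 (GRCm38), in which the IDs of Mafa and Rfx6 carry another version, and promoters are from RefSeq.

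Differences between KO and FL were tested by limma 3.58.1 under R 4.3.3 (eBayes with trend, no covariate, all 10 mice) on log2(FPKM + 1), over genes averaging 1 FPKM or more in either group, with Benjamini-Hochberg adjustment over all of them. Fold changes are on this scale, which understates the change of low genes. Single factors were also compared by exact permutation tests, and correlations by all 14400 orders of the mice within groups. Python 3.11.15 with pandas 2.3.3, numpy 2.4.6 and matplotlib 3.10.9 made the summaries. The procedure was tested on simulated data.

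The 10 factors and the lists were chosen with earlier results of these data known. Named beside the factors are Fitm2, the 5 genes most like them, and from each list the 3 largest rises, the 3 largest falls and genes listed at 0 in a group; names that only complete a count were added after the values were seen, as was the group of 6. The values of 3 list genes are not reported here, though they are part of the counts. The alternatives were other pseudocounts (0.1 and 0.01 FPKM), filters, rescalings, limma settings, an exact Wilcoxon test, a 1.5-fold limit, the replicate number as a block, and leaving out each mouse. Nothing in the labels says that FL and KO mice were paired.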

Additional observations from a re-analysis of the deposited data

Results flagged for a closer look

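Neurod1 in KO mouse 2, at 44.5 FPKM, stood far from the other 4 KO mice, which were at 53.7 to 57.3 FPKM. The gap to the nearest of them took up 0.715 of the range of the group. It was the only 1 of 42 groups of 5 values examined to stand out in this way, where chance gives about 2.1. The same mouse had the highest Pdx1, Mafa, Nkx2-2, Isl1 and Pax6 of the KO mice.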

How the results depend on the processing

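All 10 factors were called lower under each of 22 alternatives to the limma fit, with adjusted p of at most 0.0302 and log2 fold changes such as −1.44 to −1.02 for Mafa and −0.53 to −0.40 for Pdx1. An exact Wilcoxon test called all 10 (adjusted p = 0.0415) and 2500 of all 13065 tested genes. Its p for the factors was fixed by the lack of overlap between the groups and adds no further support. A 1.5-fold limit left 2 factors. Same-numbered FL and KO mice had correlations of −0.10 to 0.003 in their deviations, and 0 correlated best with their own number. These values gave no sign of pairing by replicate number, but they cannot exclude shared litters or batches. With the replicate block all 10 factors stayed called (Pdx1, adjusted p = 0.0302 from limma). All tested genes called fell to 1494 lower and 874 higher, and the median r over the 45 pairs was 0.34. No paired count of called pairs is given, because with the block taken out the FL and KO values of a number mirror each other. Pairs called numbered 5 with TPM, 1 with Spearman and 0 to 8 without single mice.

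For the lists, the causes of the following changes were not tested. Function genes called higher were 2 after median-ratio, upper-quartile or quantile scaling and with sample weights, 1 to 2 without single mice, and 0 without genes listed at 0 in a group, an alternative added after seeing the data. Cofactors called lower were 15 with sample weights; those called higher were 2 after median-ratio, 3 after upper-quartile and 3 after quantile scaling. Lineage factors called higher were 1 without a filter, 1 with sample weights, and 0 to 1 without single mice. Their median was −0.27 and −0.28 with pseudocounts of 0.1 and 0.01, −0.19 without a filter, −0.25 with a filter of 5 FPKM, −0.17, −0.16 and −0.18 after median-ratio, upper-quartile and TPM scaling, −0.27 with sample weights, and −0.27 to −0.18 without single mice. Paralogs called lower were 1 with the filter of 5 FPKM, and their median was 0.0027 without a filter, −0.036 after median-ratio and −0.029 after upper-quartile scaling. The number of β cell markers called higher differed clearly from the main count under 6 of 22 alternatives. This held under 2 each for mesenchymal and ductal markers and 1 each for endothelial and PP markers. For markers called lower it held under 1 each for alpha cells and for macrophages and leukocytes.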
